A study of Mus musculus with 22 samples.

Results

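The data describe how much livers fed the same diet differed from each other in mRNA, and which gene programs differed more between livers of mice on a high-fat diet (HFD) than between livers of mice on chow. Wild-type C57BL/6J mice of 24 weeks were compared in 2 groups of 3 liver mRNA libraries each. A high-fat diet (Bioserve S3282) was given to the HFD mice at 8 weeks of age and continued for 16 weeks, and the chow mice ate a standard chow (Prolab Isopro RMH 3000) until 24 weeks. All mice were fasted overnight before the livers were freeze-clamped, and the sex of the mice is not given in the labels. The mRNA libraries are 6 of the 22 samples of the series, and each is called here by its diet and its replicate number, such as HFD 1. The labels do not state that each library came from a separate animal, so the spread between libraries may include technical spread.

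Genes were taken where their mean over the 6 libraries was 5 CPM or more, counts scaled to a library of 1e+06, a limit that kept 9312 of 23227 genes. Lix1l at 5.005 CPM lay just inside it and Cacna1d at 4.9996 CPM just outside it. For each gene the spread is the standard deviation (SD) of log2 CPM over the 3 libraries of 1 diet. A gene was called wider in a diet when its SD there was at least 2 times its SD in the other diet and at least 0.3 log2 units. Counts of wider genes by this SD rule are descriptions without a p-value.

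As background, the liver makes cholesterol through the mevalonate pathway, whose enzymes are switched on together by the transcription factor SREBP2 when sterols in the endoplasmic reticulum run low. Many liver genes of male mice, among them the major urinary proteins, depend on the pulses in which the pituitary releases growth hormone, relayed in hepatocytes by the transcription factor STAT5B. Stellate cells are the vitamin A-storing cells of the liver sinusoids and its main source of fibrillar collagen. All of these are known to vary in liver with feeding, hormones or injury.

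Totals were 22513186, 23948777 and 20977959 counts in HFD 1 to 3 and 45741794, 19131339 and 19016275 counts in chow 1 to 3. Hepatocyte genes dominated all 6 libraries, with Alb at 62530 to 78410 CPM in the HFD libraries and 62010 to 69850 CPM in the chow libraries. Defining markers of T cells (Cd3e), neutrophils (S100a8, S100a9) and fat cells (Adipoq, Plin1) stayed at or below 1.72 CPM in every library. Xist ranged from 0.0465 to 0.314 CPM and the Y-linked Kdm5d from 17.1 to 22.2 CPM over the 6 libraries. Chow 1 stood apart by skeletal muscle genes, with Acta1 at 58.3 CPM against at most 0.107 CPM in the other libraries. Pancreatic enzyme genes were present in HFD 2 and in all 3 chow libraries and nearly absent from HFD 1 and HFD 3. The peak lists of the series, which are not mRNA data, carry another directory code for each diet. The labels used here name no batch for the mRNA libraries, so a batch that coincides with diet could not be told apart from diet.

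HFD livers differed from each other more than chow livers did, across much of the expressed genome. The median SD was 0.135 in the HFD libraries (interquartile range 0.0827 to 0.209) and 0.0970 in the chow libraries (0.0585 to 0.151), and the median ratio of the 2 SDs was 1.41, or 0.49 on the log2 scale. The HFD SD was the larger one for 6115 genes, 65.7% of those tested. The SD that counting error alone gives had a median of 0.0596 in the HFD and 0.0589 in the chow libraries. An SD of 1 or more, a typical 2-fold deviation, was reached by 71 genes in HFD and 34 genes in chow.

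Compared pair by pair, the median absolute log2 difference between 2 libraries was 0.159 for HFD 1 and HFD 2, 0.205 for HFD 1 and HFD 3 and 0.122 for HFD 2 and HFD 3. The chow pairs stood at 0.118 for chow 1 and chow 2, 0.116 for chow 1 and chow 3 and 0.0993 for chow 2 and chow 3. Every HFD pair thus lay further apart than every chow pair, although HFD 2 and HFD 3 exceeded the widest chow pair by little. Genes with a 2-fold or larger difference numbered 112, 238 and 127 in the HFD pairs and 55, 81 and 39 in the chow pairs, in the same order. The root mean square deviation of a library from its diet mean was 0.238, 0.222 and 0.229 in HFD 1 to 3, and 0.184, 0.122 and 0.158 in chow 1 to 3. The 2 groups of library distances did not overlap and differed by 0.075 on average. The exact permutation test over the 6 libraries, two-sided, gave p = 0.1, the smallest value that 20 assignments allow. Without the genes of the pancreas and muscle lists, described further on, the difference in library distance was 0.0553. The same exact permutation test, two-sided, then gave p = 0.2, so reaching the smallest possible p depended on those genes.

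**Figure D1:**
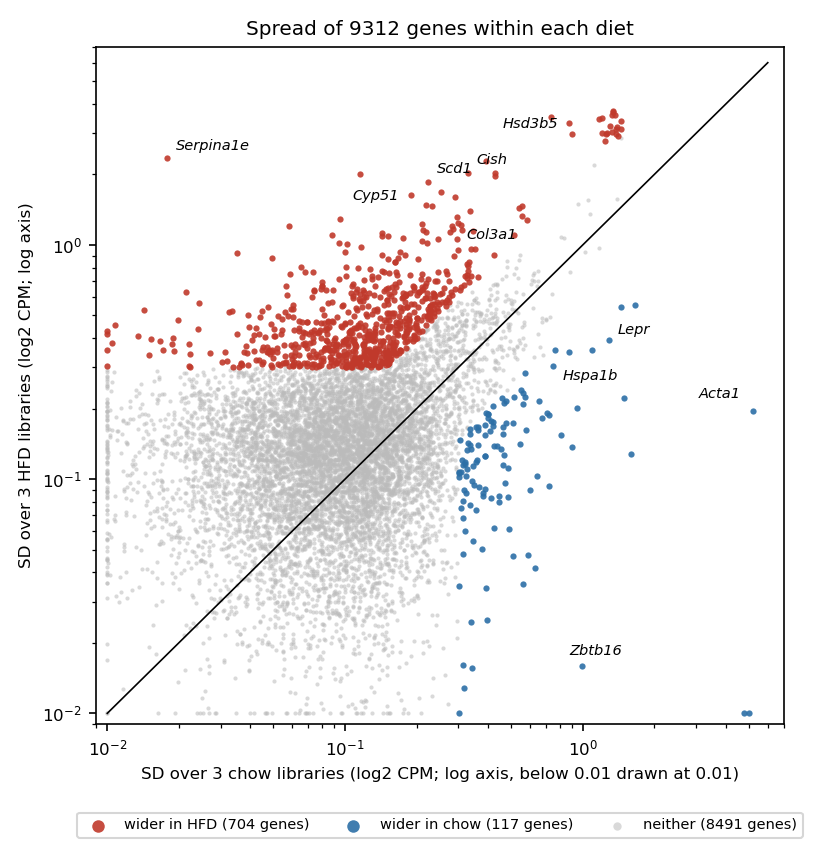
Spread of each of the 9312 genes as the SD of log2 CPM over the 3 HFD libraries (vertical) and over the 3 chow libraries (horizontal), both on log axes, with the line of equal spread. The 704 genes wider in HFD lie high above the line and the 117 genes wider in chow far to its right.

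By the SD rule 704 genes were wider in HFD, 7.56% of all genes tested, and 117 were wider in chow, 1.26%. Among the 704 genes, HFD 1 was the odd one out for 381, HFD 3 for 273 and HFD 2 for 50, where the odd library is the extreme one that lies farther from the middle one. These shares were 54.1%, 38.8% and 7.1%, against 46.6%, 33.6% and 19.8% of all genes tested, so that HFD 1 and HFD 3 were already the odd libraries for most genes. Of the 704 genes, 98 had a mean under 5 CPM in one of the diets and so passed the limit through the other diet. Where a mean of 5 CPM or more was asked in each diet, 606 genes were wider in HFD and 95 in chow. Leaving out a library changed the count to 445 without HFD 1, 1225 without HFD 2 and 612 without HFD 3, and to 829, 701 and 773 without chow 1, 2 and 3. The median log2 ratio turned to -0.16 without HFD 1, was 0.54 without HFD 2 and 0.19 without HFD 3, and lay between 0.69 and 0.94 when a chow library was left out. The median SD of 2 normal values is lower than that of 3 by 0.30 on the log2 scale, so these medians understate the diet with 2 libraries.

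The spread itself was tested across all genes in 2 ways. The Levene-type test fitted with limma found 0 genes wider in either diet after Benjamini-Hochberg adjustment (0% called, lowest adjusted p 0.153), with 1371 genes wider in HFD and 406 wider in chow at an unadjusted p under 0.05. On simulated data this test made no adjusted call at this sample size even where the planted spread was large, so its 0 does not bear on how many genes differ. A moderated variance ratio, an F-type test with limma's moderated variances that was chosen after the data were seen, called 99 genes wider in HFD (1.06%) and 0 wider in chow (0%), with 1545 and 97 genes at an unadjusted p under 0.05. All 99 genes also met the SD rule, and 5 of them had a mean under 5 CPM in chow. This count fell to 0 without HFD 3, 38 without HFD 1 and 38 without chow 2, and was 275 without HFD 2, 197 without chow 1 and 739 without chow 3. HFD 3 was the odd library for 60 of the 99 genes, HFD 1 for 38 and HFD 2 for 1.

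Among liver programs, collagen and stellate cell genes, the major urinary proteins, cholesterol synthesis and genes expressed more in male than in female liver had the largest shares of genes wider in HFD. Pancreatic enzyme genes, described further on, reached 19 of 23 through HFD 2. Lists of 54 programs and cell markers were counted against the 7.56% of all genes that were wider in HFD. The lists and their members were chosen with earlier results of these data known, so the shares are descriptions and not tests. Members of a list are also not independent of each other. The shares were 20 of 22 for stellate cell and matrix markers, 14 of 18 for major urinary proteins, 14 of 19 for cholesterol synthesis and 11 of 21 for male-biased genes. Of these wider members 2, 1, 1 and 1, in the same order, had a mean under 5 CPM in one of the diets. Smaller shares were wider in sterol uptake and sensing (7 of 14), growth hormone axis (5 of 14), female-biased genes (5 of 14) and glutathione and NRF2 targets (10 of 28). Immediate early genes (5 of 15), drug-metabolising P450 enzymes (9 of 29), endoplasmic reticulum chaperones (6 of 21), fatty acid synthesis (4 of 15) and apolipoproteins (5 of 19) followed. Immediate early genes had a median log2 ratio of SDs of -0.33. Further lists, among them acute phase proteins (7 of 28) and coagulation and complement (6 of 33), had still smaller shares. Short marker lists are not ranked here. In the plot of list medians, the median log2 ratio of SDs was 2.16 for major urinary proteins, 1.99 for cholesterol synthesis, 1.91 for stellate cell and matrix markers and 1.36 for male-biased genes, against 0.49 for all genes. Cytosolic ribosomal proteins reached 2.08 with 0 of 44 wider by the SD rule. Over all genes tested, HFD 1 was the highest HFD library for 48.2%, HFD 2 for 18.2% and HFD 3 for 33.6%, and the lowest for 31%, 31.2% and 37.8%, which is the background for the order counts of each list. For chow, chow 1 was highest for 3493 and chow 3 lowest for 3226 of all 9312 genes. These lists were not all driven by the same liver, as the deviations by library show.

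**Figure D2:**
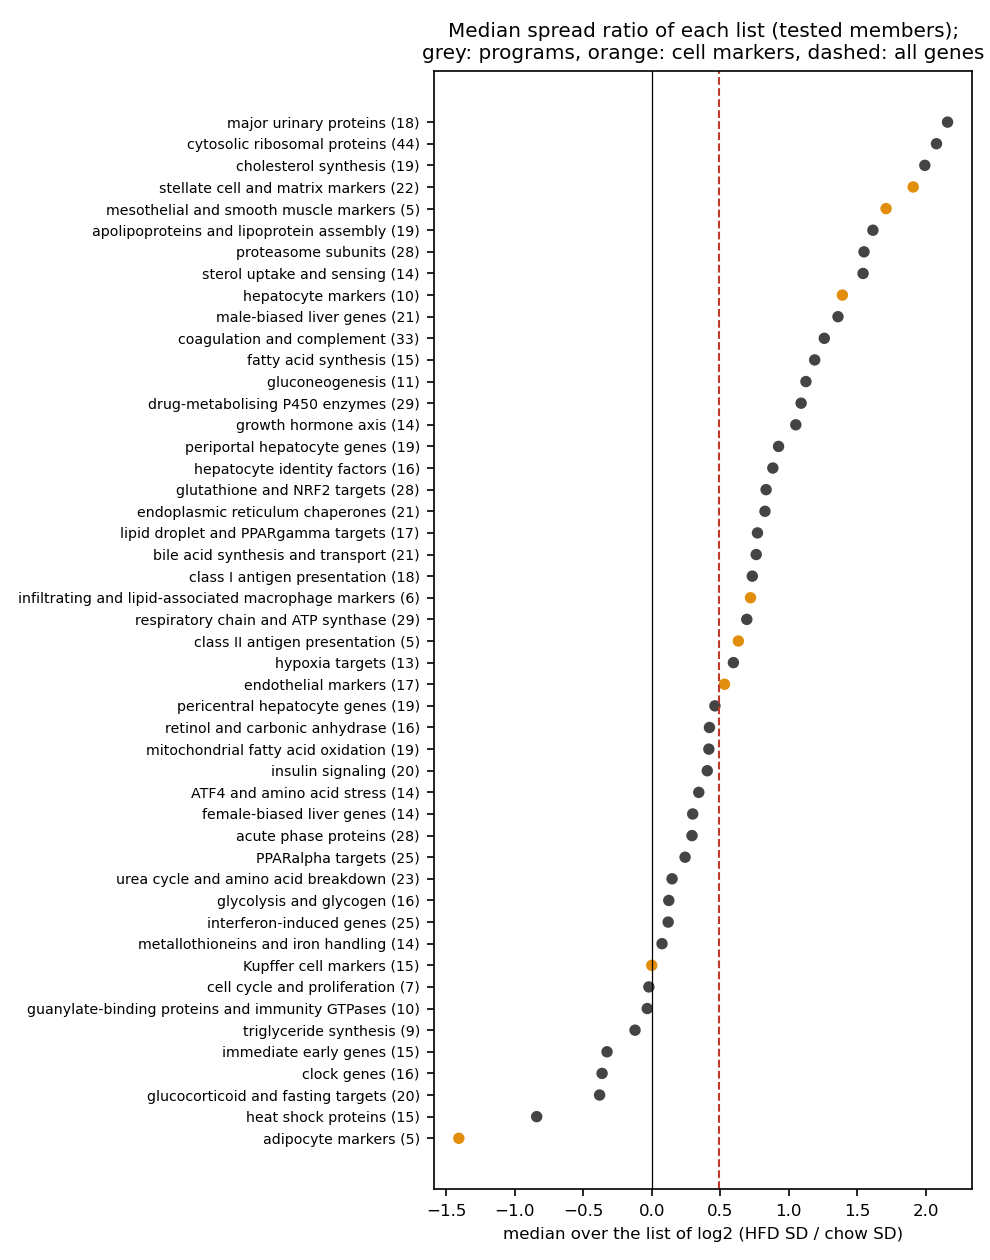
Median over each list of the log2 ratio of the HFD SD to the chow SD, for lists with 5 or more tested members except pancreas markers, with the number of tested members in brackets; the dashed line marks 0.49, the median of all genes. Major urinary proteins lie highest at 2.16, and heat shock proteins and adipocyte markers lie below 0.

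**Figure D3:**
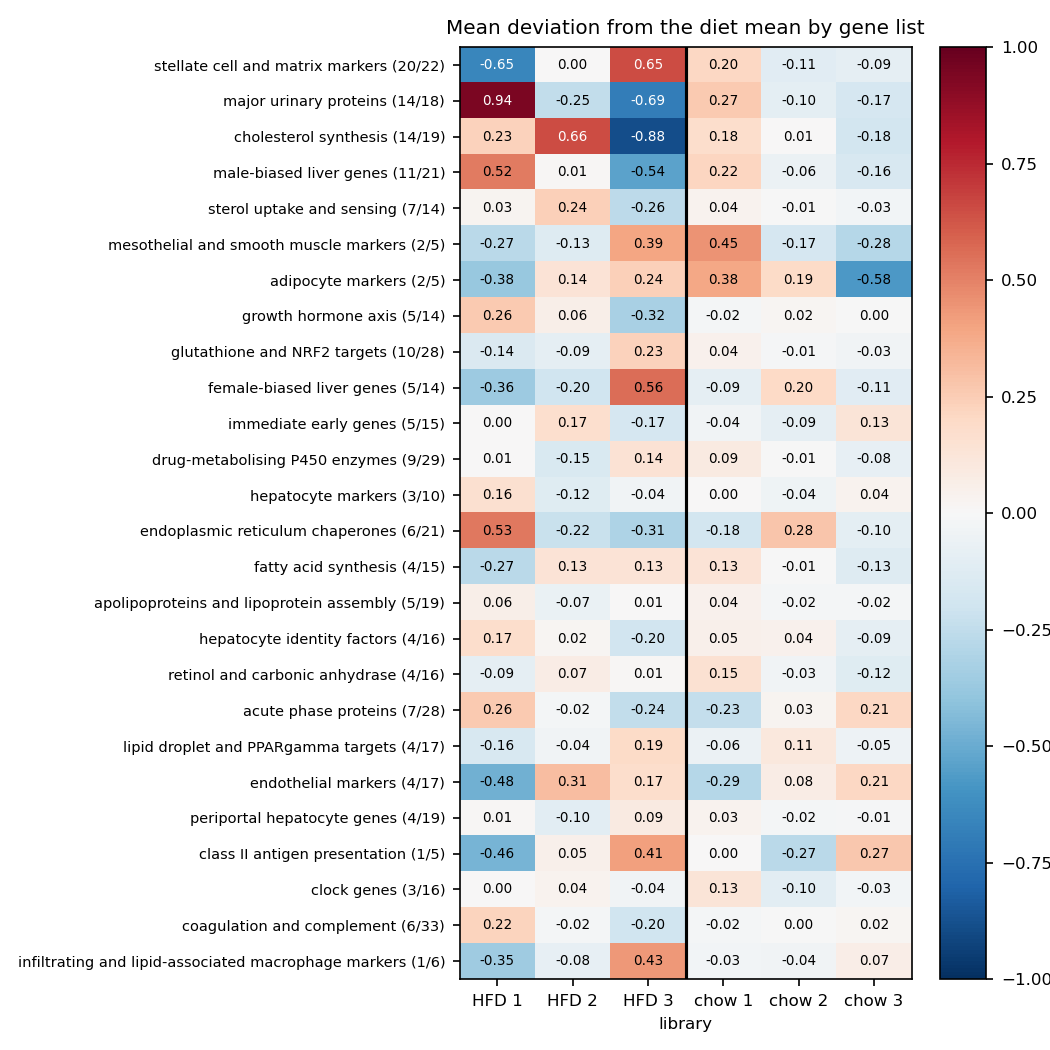
Mean deviation of each library from its diet mean (log2 CPM, colour and printed value) for the 26 lists with the largest share of genes wider in HFD, given in brackets as wider over tested members. HFD 3 is lowest for cholesterol synthesis (-0.88), and HFD 1 is lowest for stellate cell and matrix markers (-0.65) and highest for major urinary proteins (0.94).

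Cholesterol synthesis enzymes were high in HFD 2 and low in HFD 3, while the 3 chow livers lay closer together. Of 19 members tested, 17 were highest in HFD 2 and 17 were lowest in HFD 3. The chow livers had an order too, with 16 of 19 highest in chow 1 and 16 lowest in chow 3. The median SD of the list was 0.647 in HFD and 0.223 in chow, against 0.135 and 0.0970 for all genes. The median fold between the highest and the lowest library was 2.42 over the HFD libraries and 1.35 over the chow libraries, against 1.20 and 1.14 for all genes. Sqle, the squalene epoxidase, had 24.2, 43.4 and 2.94 CPM in HFD 1 to 3, against 12.3, 10.6 and 6.93 CPM in chow 1 to 3. HFD 3 lay below all chow libraries and the other HFD livers above them. Cyp51, which removes a methyl group from lanosterol, had 59.5, 84.02 and 10.2 CPM in HFD 1 to 3 and 37.5, 38.4 and 30.3 CPM in chow 1 to 3. Its SD was 1.63 in HFD and 0.19 in chow (adjusted p of the moderated variance ratio 0.00219). Fdps, the farnesyl diphosphate synthase, had 69.9, 103 and 14.9 CPM in HFD and 20.97, 20.2 and 15.6 CPM in chow. Idi1, which interconverts the isoprene units upstream of it, had 51.4, 80.9 and 9.67 CPM in HFD and 41.4, 35.2 and 27.7 CPM in chow, so that HFD 3 again stood alone below both the other HFD livers and all chow livers. The members wider in HFD fell in number to 5 of 19 without HFD 3, where the median log2 ratio was 0.65. It was 14 of 18 without HFD 1 and 10 of 18 without HFD 2, and 12 to 15 of 19 without a chow library.

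Genes of sterol uptake and sensing shared this order of livers in part. Of 14 members, 7 were highest in HFD 2 and 4 in HFD 3, and 8 were lowest in HFD 3. Stard4, a cytosolic carrier of cholesterol, had 36.7, 53.2 and 18.6 CPM in HFD 1 to 3 and 25.6, 24.1 and 21.01 CPM in chow 1 to 3. Insig1, which holds SREBP in the endoplasmic reticulum, had 168, 193 and 87.97 CPM in HFD and 66.4, 63.4 and 54.1 CPM in chow, with its wide HFD spread resting on HFD 3 since the SD difference was -0.009182 without it. Abcg1, which exports cholesterol to lipoproteins, was also wider in HFD but lowest in HFD 1, with 5.72, 10.3 and 10.7 CPM in HFD and 4.76, 5.31 and 5.16 CPM in chow, and its SD difference was -0.041 without HFD 1. Sterol uptake and sensing had 4 to 7 of 14 members wider when a HFD library was left out.

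Scd1, the stearoyl-CoA desaturase that makes monounsaturated fatty acids, had another order of livers. It had 1005, 3915 and 13225 CPM in HFD 1 to 3, against 1486, 1293 and 1089 CPM in chow 1 to 3, and its SD was 1.86 in HFD and 0.22 in chow (adjusted p 0.002504 by the moderated variance ratio). HFD 1 was below all chow livers, and HFD 2 and HFD 3 were above them. Elovl6, which lengthens saturated fatty acids, was also lowest in HFD 1, with 27.8, 36.9 and 45.4 CPM in HFD and 64.1, 69.7 and 61.8 CPM in chow. Across fatty acid synthesis, 4 of 15 members were wider in HFD and 1, Srebf1, in chow. Srebf1, the lipogenic SREBP gene, had 102, 138 and 114 CPM in HFD and 35.8, 22.8 and 19.3 CPM in chow, and its SD difference was 0.054 without chow 1. Among lipid droplet genes, Cidec, which fuses droplets, had 15.3, 34.3 and 74.4 CPM in HFD and 67.5, 98.95 and 78.8 CPM in chow, and the fatty acid transporter Cd36 had 151, 185 and 346 CPM in HFD and 83.2, 97.4 and 84.3 CPM in chow. Both were highest in HFD 3 and lowest in HFD 1, and 4 of 17 genes of that list were wider in HFD.

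**Figure D4:**
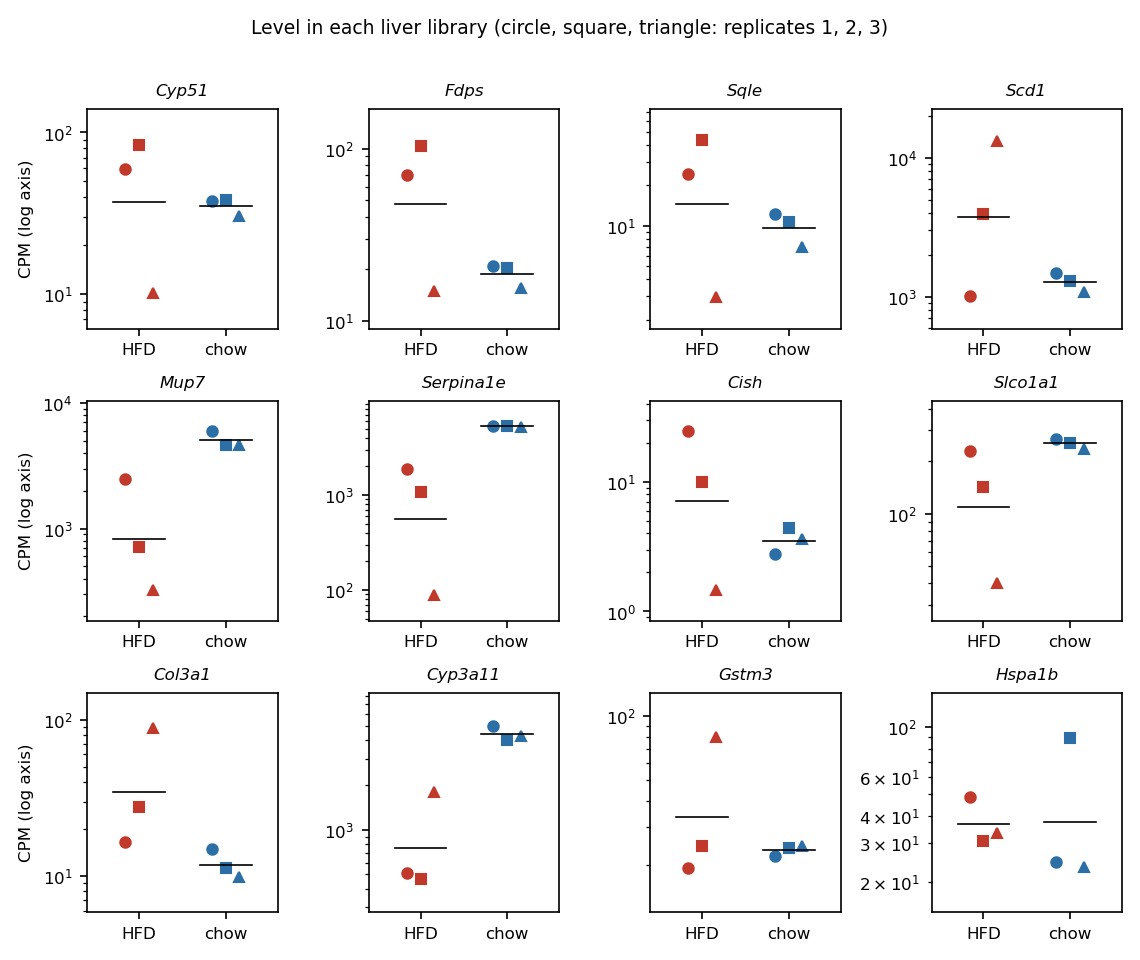
CPM of 12 genes in each library (log axes), HFD left in red and chow right in blue, with the replicate number by symbol and the geometric mean as a line. The HFD points of Cyp51, Fdps and Sqle have HFD 3 lowest, those of Scd1, Col3a1, Cyp3a11 and Gstm3 have HFD 3 highest, and Hspa1b is spread by chow 2.

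Of 14 growth hormone axis genes, 9 were highest in HFD 1 and 4 in HFD 3, while 10 were lowest in HFD 3 and 4 in HFD 1. Cish, a feedback inhibitor that STAT5 induces directly, had 24.5, 9.94 and 1.47 CPM in HFD 1 to 3 and 2.76, 4.398 and 3.601 CPM in chow 1 to 3, so that HFD 1 and HFD 2 lay above the chow range and HFD 3 below it. Its SD was 2.03 in HFD and 0.33 in chow. Cish, with a mean of 11.97 CPM in HFD and 3.59 CPM in chow, passed the limit of 5 CPM only through HFD, so no test is given for it. Bcl6, a repressor that STAT5 holds down, is on the male-biased list and not among these 14 genes. It went the other way between livers, with 15.99, 15.3 and 62.8 CPM in HFD and 83.02, 63.4 and 65.2 CPM in chow. HFD 3 was just below the chow range for Bcl6 and the other HFD livers were far below it, and without HFD 3 the SD difference was -0.17. Socs2, another STAT5 target, had 6.69, 4.28 and 2.36 CPM in HFD and 8.45, 13.1 and 12.3 CPM in chow. Its mean in HFD was under 5 CPM, so Socs2 passed the limit only through chow. The receptor gene Ghr differed little among HFD livers, with 541, 535 and 527 CPM, and among chow livers, with 356, 325 and 292 CPM. Of the 14 genes, 5 were wider in HFD and 0 in chow, and without HFD 1 and HFD 3 there were 2 of 13 and 3 of 14.

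The promoters of Cish and Bcl6 are shown because these genes stood at opposite ends of the HFD livers and both carry the STAT5 core letters TTCNNNGAA near their starts. Capitals mark each match, and each run covers 250 bases before and 50 bases from a RefSeq start on the GRCm38.p6 build. The Cish window is chr9:107296409-107296708 on the plus strand and the Bcl6 window is chr16:23981234-23981533 on the minus strand. A window at another RefSeq start of Bcl6, chr16:23988803-23989102, holds 1 match and is not printed.
Cish: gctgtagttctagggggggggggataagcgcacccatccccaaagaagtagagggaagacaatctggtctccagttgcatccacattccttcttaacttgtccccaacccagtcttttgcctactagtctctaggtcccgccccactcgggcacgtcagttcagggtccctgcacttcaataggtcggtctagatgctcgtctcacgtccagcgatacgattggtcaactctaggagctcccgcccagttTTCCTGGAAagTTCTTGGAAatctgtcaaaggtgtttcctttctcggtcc
Bcl6: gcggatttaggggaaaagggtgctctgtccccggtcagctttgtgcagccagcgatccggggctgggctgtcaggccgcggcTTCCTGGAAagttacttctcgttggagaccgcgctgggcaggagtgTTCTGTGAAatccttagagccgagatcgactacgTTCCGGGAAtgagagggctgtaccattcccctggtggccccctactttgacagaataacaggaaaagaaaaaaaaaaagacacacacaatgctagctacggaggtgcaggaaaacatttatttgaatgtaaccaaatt
The motif reads the same on both strands, and a match describes letters only. It was present in 9.55% of all 27025 genes of the promoter table, in 3 of the 13 growth hormone axis genes with an entry, in 3 of 17 male-biased genes and in 0 of 14 major urinary protein genes. The letters TCACNCCAC, a form of the sterol regulatory element searched on both strands, were in 1.44% of all promoters, in 1 of 15 cholesterol synthesis genes and in 0 of 11 sterol uptake and sensing genes with an entry.

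The major urinary proteins, small pheromone carriers made by the male liver, were highest in HFD 1 for 17 of 18 genes and lowest in HFD 3 for 14 of 18. Within chow, 16 of 18 were highest in chow 1 and 11 were lowest in chow 3. Mup7 had 2465, 712 and 322 CPM in HFD 1 to 3 and 5999, 4587 and 4648 CPM in chow 1 to 3. All HFD livers lay below all chow livers. Mup11 had 307, 86.9 and 29.5 CPM in HFD and 687, 549 and 485 CPM in chow. The median fold between the highest and the lowest library was 3.24 over HFD and 1.298 over chow for the 18 genes. Mup genes are nearly identical in sequence, so counts of single members are uncertain, while their summed level was 25530, 13240 and 10380 CPM in HFD 1 to 3 and 36500, 31030 and 31490 CPM in chow 1 to 3. The number of wider members fell to 7 of 17 without HFD 1 and was 15 of 18 without HFD 2 and without HFD 3.

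Other male-biased genes had the same order, with HFD 1 highest for 17 of 21 and HFD 3 lowest for 16 of 21. Within chow, 15 of 21 were highest in chow 1 and 12 were lowest in chow 3. Serpina1e, a member of the alpha-1-antitrypsin family that is on no list, had 1885, 1070.2 and 88.2 CPM in HFD 1 to 3, against 5335, 5311 and 5212 CPM in chow 1 to 3. The chow livers were almost equal, with an SD of 0.0179 against 2.35 in HFD, and it had the lowest adjusted p of the moderated variance ratio (6.32e-05). Reads of Serpina1e may be shared with its near-identical relatives. Slco1a1, an organic anion transporter, had 229.5, 142 and 40.3 CPM in HFD and 269, 255 and 236 CPM in chow. Hsd3b5, a steroid-reducing enzyme, had 45.9, 11.5 and 0.446 CPM in HFD and 4.51, 1.72 and 1.397 CPM in chow, a wide range in both diets. It was under 5 CPM in every chow library and passed the limit of 5 CPM only through HFD. Complement C8b, part of the membrane attack complex, had 222, 151 and 62.5 CPM in HFD and 255, 291 and 261 CPM in chow. HFD 3 was highest for 3 of 21 male-biased genes, among them Bcl6. The male-biased list had 9 of 20 members wider without HFD 1 and 6 of 21 without HFD 3, and 13 of 21 without HFD 2.

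Female-biased genes were highest in HFD 3 for 11 of 14 members. Cyp3a44 had 8.13, 7.58 and 33.6 CPM in HFD 1 to 3 and 46.2, 44.7 and 42.6 CPM in chow 1 to 3. Cyp2b13 had 8.46, 5.78 and 74.1 CPM in HFD and 0, 0.0536 and 0 CPM in chow, where it was close to undetected. By the SD rule 5 of 14 were wider in HFD, and 2 of 12 without HFD 3. Of the 5 wider members, 2 had a mean under 5 CPM in chow. Cyp3a44 and Cyp2b13 are members of large P450 clusters whose similar sequences may share reads.

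Collagen and stellate cell genes separated the HFD livers in nearly 1 order. All 22 tested members were lowest in HFD 1, and 20 of 22 were highest in HFD 3. Col3a1, a fibrillar collagen chain, had 16.5, 27.5 and 88.99 CPM in HFD 1 to 3 and 14.8, 11.3 and 9.84 CPM in chow 1 to 3. Col1a2 had 8.97, 16.6 and 47.02 CPM in HFD and 10.5, 7.83 and 7.26 CPM in chow, and Col1a1 had 4.46, 8.61 and 33.1 CPM in HFD and 3.44, 1.61 and 1.93 CPM in chow. HFD 1 overlapped the chow range for Col1a2 and HFD 3 lay far above it. Col1a1 was under 5 CPM in every chow library and passed the limit of 5 CPM only through HFD. Basement membrane collagen Col4a1 had 28.2, 45.7 and 68.5 CPM in HFD and 28.6, 28.8 and 31.9 CPM in chow. The smooth muscle actin gene Acta2, a marker of activated stellate cells, had 2.88, 6.13 and 11.1 CPM in HFD and 5.82, 5.04 and 3.65 CPM in chow. Its mean in chow was under 5 CPM, so Acta2 passed the limit only through HFD. Lrat, which stores retinol in quiescent stellate cells, had 12.7, 20.9 and 19.8 CPM in HFD and 14.7, 17.4 and 16.9 CPM in chow. The SD difference of Lrat was -0.083 without HFD 1. The summed level of the list was 466.8, 725.4 and 1027 CPM in HFD 1 to 3 and 640.1, 595.7 and 617.8 CPM in chow 1 to 3. In bulk tissue more cells of a type and more RNA per cell cannot be told apart. The wider members numbered 12 of 22 without HFD 1, 13 of 20 without HFD 3 and 20 of 22 without HFD 2. The exception was Des, the muscle filament desmin, which was wider in chow with 5.62, 5.93 and 7.53 CPM in HFD and 18.9, 3.75 and 2.63 CPM in chow. Chow 1, where it was high, is the library that holds skeletal muscle genes.

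Endothelial and Kupffer cell markers were also low in HFD 1. Endothelial markers deviated by -0.48, 0.31 and 0.17 on average in HFD 1 to 3 and by -0.29, 0.08 and 0.21 in chow 1 to 3, and 4 of 17 were wider in HFD. This count was 14 of 17 without chow 1, and without HFD 1 it was 1 of 17 with 3 wider in chow. Vwf, the von Willebrand factor gene, had 9.48, 13.4 and 21.1 CPM in HFD and 9.53, 8.15 and 8.38 CPM in chow. Kupffer cell markers deviated by -0.45, 0.52 and -0.07 in HFD and by -0.36, -0.17 and 0.54 in chow, a spread seen within both diets, and 0 of 15 were wider in either diet by the SD rule. That rests on single libraries, since 11 of 15 were wider in HFD without chow 3 and 4 were wider in chow without HFD 1. Marco, a scavenger receptor, had 8.23, 45.00 and 6.02 CPM in HFD and 7.201, 7.24 and 25.9 CPM in chow. The 3 cholangiocyte markers tested were all lowest in HFD 2 and highest in HFD 3, with mean deviations of -0.21, -0.31 and 0.52 in HFD 1 to 3 and 0.29, -0.01 and -0.28 in chow 1 to 3. The defining marker list of hepatocytes summed to 110100, 87660 and 88480 CPM in HFD 1 to 3 and 99910, 96860 and 106100 CPM in chow. HFD 1 had the highest hepatocyte sum, most of it Alb at 78410 CPM. By the authors' normalized counts the hepatocyte markers deviated by 0.011, -0.068 and 0.057 in the 3 HFD columns, where HFD 1 was not the highest. All 17 endothelial markers were lowest in HFD 1, as were the 22 stellate cell and matrix markers. The 5 class II antigen presentation genes tested were all lowest in HFD 1 and highest in HFD 3. Of 6 infiltrating and lipid-associated macrophage markers, 5 were lowest in HFD 1 and all 6 were highest in HFD 3. By the SD rule 1 of 5 and 1 of 6 were wider in HFD. The part of this makeup in the spread of other programs was not tested.

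Drug-metabolising and glutathione genes set HFD 3 apart. Cyp3a11, a main P450 of xenobiotic breakdown, had 511, 468 and 1807 CPM in HFD 1 to 3 and 4964, 4048 and 4304 CPM in chow 1 to 3. Its SD was 1.09 in HFD and 0.15 in chow, and the SD difference was -0.06711 without HFD 3. Cyp2c54 had 226, 179 and 72.1 CPM in HFD and 262, 242 and 213 CPM in chow, with HFD 3 lowest, so that the P450 genes did not share an order of livers. Gstm3, a glutathione S-transferase, had 19.3, 24.4 and 80.04 CPM in HFD and 21.99, 24.1 and 24.7 CPM in chow. Gstm1 had 608, 664 and 1319 CPM in HFD and 629.9, 583 and 599 CPM in chow, and Gsta2 had 2.97, 4.52 and 10.1 CPM in HFD and 10.4, 11.05 and 10.4 CPM in chow. HFD 3 was highest for 16 of 28 glutathione and NRF2 genes, and Nfe2l2, which encodes NRF2, was not wider. Without HFD 3, 2 of 28 glutathione and NRF2 genes and 1 of 28 P450 genes were wider in HFD. Gst and Cyp genes of 1 family resemble each other, so that some reads may be split between them.

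Genes of secreted proteins and their folding machinery were mostly highest in HFD 1. That was the highest HFD library for 48.2% of all genes, and for all 44 ribosomal protein and 27 of 28 proteasome genes. Endoplasmic reticulum chaperones were highest in HFD 1 for 20 of 21 genes and, within chow, highest in chow 2 for 20 of 21. Derl3, part of the channel that exports misfolded proteins, had 44.9, 11.7 and 8.29 CPM in HFD 1 to 3 and 3.42, 7.72 and 4.78 CPM in chow 1 to 3. Calr, the lectin chaperone calreticulin, had 1318, 751 and 723 CPM in HFD and 544, 703 and 598 CPM in chow. Without HFD 1 none of the 21 chaperones was wider in HFD and 6 were wider in chow, and the SD differences were -0.24 for Derl3 and -0.15 for Calr. By the authors' normalized counts 1 of 21 was wider. Coagulation and complement genes were highest in HFD 1 for 29 of 33 members. Their median log2 ratio of SDs was 1.26, but 0.30 by the authors' normalized counts, where that of all genes was 0.40. C8a, a membrane attack component that the male-biased list also holds, had 841, 602 and 294 CPM in HFD and 409, 487 and 485 CPM in chow, and C9 had 469.8, 351 and 257 CPM in HFD and 361, 388 and 359.6 CPM in chow. Apoa4, an intestinal and hepatic apolipoprotein, went the other way with 529.9, 727 and 2172 CPM in HFD and 1588, 2021 and 1826 CPM in chow, while Apoa1, the main protein of HDL, had 8432, 5481 and 4622 CPM in HFD and 7126, 7002 and 6752 CPM in chow. Among hepatocyte transcription factors, Onecut1 had 22.8, 15.3 and 3.92 CPM in HFD and 3.35, 4.45 and 2.96 CPM in chow, Foxa2 had 44.2, 28.8 and 20.8 CPM in HFD and 21.9, 21.9 and 19.02 CPM in chow, and Hnf4a had 1090.5, 1009.9 and 910.2 CPM in HFD and 1116, 1194 and 1175 CPM in chow. Onecut1 and Foxa2 were wider in HFD, with HFD 1 highest, and 4 of 16 factors were wider in all. The median log2 ratio of the 16 factors was 0.88, but 0.13 by the authors' normalized counts. Onecut1, with a mean of 14.02 CPM in HFD and 3.59 CPM in chow, passed the limit of 5 CPM only through HFD.

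A small shift that followed gene length ran through the HFD libraries. Across 8448 genes with a RefSeq span on GRCm38, 90.7% of those tested, the deviation from the diet mean had a Spearman correlation with span of -0.412 in HFD 1, 0.167 in HFD 2 and 0.355 in HFD 3, and of -0.203, 0.049 and 0.196 in chow 1 to 3. These are correlations across genes of 1 library, which are not independent and share depth and base composition. In the shortest of 5 equal groups of genes, with a median span of 4.804 kb, HFD 1 deviated by a median of 0.13 and HFD 3 by -0.09, and in the longest group, with a median span of 112.6 kb, by -0.07 and 0.06. The share of genes wider in HFD was 9.82% in the shortest and 9.05% in the longest group, and 6.04% to 6.81% between them. Ribosomal protein genes, which are short, had a median log2 ratio of SDs of 2.08 and none of 44 was wider by the SD rule, since their median SD was 0.182 in HFD and 0.0416 in chow. Rpl10 had 483, 367 and 329 CPM in HFD and 443, 456 and 452 CPM in chow. Proteasome subunits, with 0 of 28 wider, had a median log2 ratio of 1.55.

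In the authors' normalized counts, which do not come from 1 factor per library, the correlations with span were -0.127, 0.0442 and 0.121 in the HFD columns. There the median log2 ratio turned to -0.50 for ribosomal proteins and -0.74 for proteasome subunits. The larger programs kept their size: the mean deviations of the 3 HFD columns were -0.63, -0.02 and 0.66 for stellate cell and matrix markers, 0.79, -0.17 and -0.62 for major urinary proteins, and 0.20, 0.69 and -0.89 for cholesterol synthesis. By these values 659 genes were wider in HFD and 114 in chow, with a median log2 ratio of 0.40, and 519 of the 659 genes were among the 704.

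**Figure D5:**
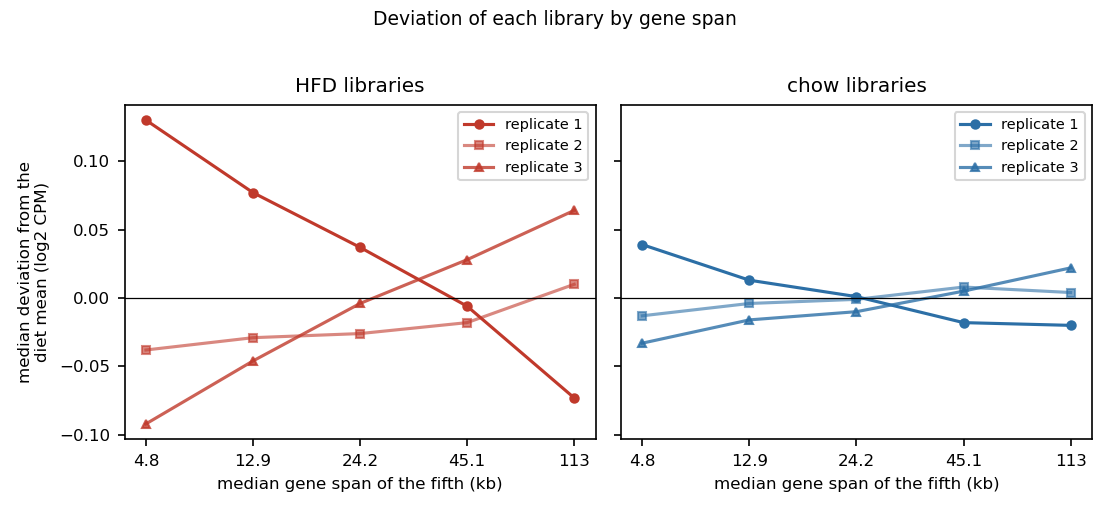
Median deviation of each library from its diet mean (log2 CPM) in 5 equal groups of genes by RefSeq gene span, HFD libraries left and chow libraries right. The lines of HFD 1 (0.13 to -0.07) and HFD 3 (-0.09 to 0.06) cross, and the chow lines stay closer to 0.

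Several programs had few or no genes that met the SD rule, but the lists are too short to set such counts apart from the 7.56% of all genes. None of 19 mitochondrial fatty acid oxidation genes, 29 respiratory chain and ATP synthase genes, 11 gluconeogenesis genes and 16 glycolysis and glycogen genes was wider in HFD. Their median log2 ratios of SDs were 0.42, 0.69, 1.125 and 0.12, against 0.49 for all genes, so that the first and the last lay below all genes and the other two above. The median SD of gluconeogenesis genes was 0.139 in HFD and 0.0769 in chow, under the 0.3 that the rule asks for. Urea cycle and amino acid breakdown had 1 of 23, insulin signaling 1 of 20 and interferon-induced genes 1 of 25 wider in HFD, against 7.56% of all genes. Of the 25 interferon-induced genes, 4 were wider in chow, against 1.26% of all genes. G6pc, the glucose-releasing phosphatase, had 207, 177 and 147 CPM in HFD and 417, 440.4 and 464 CPM in chow, and Acadvl, which starts the oxidation of very long fatty acids, had 613, 510.4 and 464 CPM in HFD and 718, 735 and 709 CPM in chow. Both had the larger SD in HFD, 0.24 against 0.0769 in chow for G6pc and 0.20 against 0.0267 in chow for Acadvl. Grb14, an inhibitor of the insulin receptor, was the wider member of its list, with 53.5, 39.3 and 35.8 CPM in HFD and 63.5, 65.00 and 63.1 CPM in chow.

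Fewer genes spread more between chow livers. Heat shock proteins were highest in chow 2 for all 15 members, and 5 were wider in chow and 0 in HFD. Hspa1b, the stress-inducible HSP70, had 48.6, 30.6 and 33.3 CPM in HFD 1 to 3 and 24.8, 89.4 and 23.5 CPM in chow 1 to 3. Its SD difference was 0.30 without chow 2, where the list had 1 of 15 wider in chow and 2 in HFD. Zbtb16, a transcription factor induced by glucocorticoids, had 93.97, 91.96 and 93.4 CPM in HFD and 10.6, 38.03 and 30.8 CPM in chow. Lepr, the leptin receptor gene, had a mean under 5 CPM in HFD and passed the limit only through chow. It had 3.58, 3.85 and 5.97 CPM in HFD and 10.5, 53.2 and 46.4 CPM in chow. Its SD difference turned to 0.26 without chow 1. Lcn2, the iron-trapping acute phase protein lipocalin-2, had 77.6, 63.4 and 74.9 CPM in HFD and 2.36, 6.44 and 6.29 CPM in chow, and turned to 0.13 likewise. Car3, a carbonic anhydrase also abundant in fat and muscle, had 2725, 3158 and 2391 CPM in HFD and 343, 181 and 92.01 CPM in chow. The muscle genes Acta1, Myh1 and Myh8 were wider in chow through chow 1, with Myh8 at 51.0 CPM there and at 0 to 0.161 CPM in the other libraries. These genes passed the limit of 5 CPM only through chow 1, the library that makes them wide.

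Pancreatic enzyme genes had 19 of 23 tested members wider in HFD, through HFD 2 in all 19. Of these 19, 13 had a mean under 5 CPM in HFD and passed the limit only through chow. Their HFD spread sets HFD 2 against libraries near zero, with Cpa1 at 4, 460 and 2 counts in HFD 1 to 3. Cpa1, a carboxypeptidase of pancreatic juice, had 0.186, 18.1 and 0.0891 CPM in HFD 1 to 3 and 163, 67.04 and 25.3 CPM in chow 1 to 3. The list summed to 23.79, 260 and 11.63 CPM in HFD and 2680, 1185 and 448 CPM in chow. The SD difference of Cpa1 was -0.89 without HFD 2. Without the genes of the pancreas and muscle lists, 685 genes were wider in HFD and 115 in chow. Dmbt1, a secreted mucosal scavenger receptor on neither of these lists, had 0.418, 18.7 and 52.3 CPM in HFD and 52.02, 56.8 and 22.6 CPM in chow, with HFD 1 lowest.

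Acetylation of histone H3 at lysine 27 (H3K27ac) at promoters marks active genes and was read in another 3 HFD and 3 chow libraries, whose labels do not say that equal numbers mean the same liver. Totals at promoters were 1967613, 3788577 and 3544273 counts in HFD 1 to 3 and 4265510, 2376133 and 4964403 in chow 1 to 3. Over 9211 genes the median SD of promoter signal was 0.117 in HFD and 0.102 in chow, and 4.3% of promoters were wider in HFD. Over the 670 genes wider in HFD in mRNA that have a promoter value, the medians were 0.151 and 0.113 and 10.1% of promoters were wider. Over 84 genes called by the moderated variance ratio, they were 0.201 and 0.136, and 20.2%. Scd1 and Cyp51, wider in HFD in mRNA, had promoters with a narrower spread in HFD than in chow. The Scd1 promoter had 81.1, 86.6 and 78.99 CPM in HFD and 71.2, 58.4 and 55.6 CPM in chow, and the Cyp51 promoter had 46.99, 51.4 and 50.2 CPM in HFD and 73.96, 62.3 and 59.7 CPM in chow. The deviations of equally numbered mRNA and H3K27ac HFD libraries correlated across the 9211 genes at -0.159, -0.0726 and -0.0299 for numbers 1 to 3.

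Of the 99 genes called by the moderated variance ratio, 59 were on a list and 40 were not. The following were chosen after their values were seen. Enho, which encodes the secreted peptide adropin, had 19.1, 10.9 and 4.06 CPM in HFD 1 to 3 and 7.61, 7.94 and 6.56 CPM in chow 1 to 3. Foxq1, a forkhead transcription factor, had 29.6, 14.9 and 6.46 CPM in HFD and 5.64, 5.095 and 6.23 CPM in chow. Csad, which makes the taurine precursor hypotaurine, had 88.3, 172 and 70.9 CPM in HFD and 386, 416 and 393 CPM in chow. Anxa2 and Anxa5, calcium-dependent membrane binders, were highest in HFD 3, Anxa2 with 16.96, 17.9 and 42.4 CPM in HFD and 7.47, 8.15 and 8.599 CPM in chow and Anxa5 with 57.3, 65.4 and 114 CPM in HFD and 67.9, 67.6 and 66.6 CPM in chow. Without HFD 3 the SD difference of Anxa2 was -0.043. Fetub, a liver-secreted protease inhibitor, had 597, 415 and 309.7 CPM in HFD and 398, 366 and 391.6 CPM in chow, with HFD 1 highest.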

How the data were processed

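Gene counts of 6 liver mRNA libraries and promoter counts of 6 H3K27ac libraries were used. The deposited count files hold raw whole-number counts per gene symbol, made by the authors. Per the submitters' processing notes, the tools for mRNA were TopHat 1.4.0, HTSeq, DESeq2 1.0.18 and bedtools on the build mm9, and which tool made which file is not stated. The authors' deposited normalized mRNA signal is a scaled count of unstated method that does not come from 1 factor per library; it was used only as an alternative, as log2(value + 1). How wide the counted promoters are is not given in the sources used here. Reads carry no molecular identifiers, so PCR copies were counted.

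From the counts, libraries were scaled with TMM factors in edgeR 4.0.16 (R 4.3.3), and log2 CPM was computed with a prior count of 2. Genes with a mean CPM of 5 or more were kept. Ratios of SDs used a floor of 0.01. Printed CPM are counts divided by the TMM-scaled total and multiplied by 1e+06. The Levene-type test was fitted with limma 3.58.1 to the absolute deviations from the diet mean, with robust and trended eBayes and diet as the only term, two-sided. The moderated variance ratio compares the variance of one diet with the variance of the other moderated by limma's squeezeVar, one-sided in each direction, and was added after the data were seen. Benjamini-Hochberg adjustment ran over all 9312 genes, with a threshold of 0.05. Both tests were run on simulated data of known spread. Under equal spread the unadjusted p-values of the Levene-type test ran small.

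The labels do not say that equal replicate numbers pair libraries of the 2 diets, and no pairing was used. Deviations of equal numbers correlated across genes at 0.0228, -0.0284 and 0.225 for HFD 1 to 3. Against chow libraries of other numbers, the values were -0.0238 to -0.00831, -0.222 to 0.21 and -0.227 to 0.0522. These correlations do not settle whether numbers were paired. The members and the 54 lists were chosen with earlier results of these data known. The text names the 12 genes with the largest excess of the HFD SD, the 8 with the largest excess of the chow SD, up to 4 members a list with the largest SD difference, up to 10 genes with the lowest p of the Levene-type test, and markers. Some of these are given only as counts, and some are not reported here. Abcg1, Ghr, Col4a1, Acta2, Lrat, Nfe2l2 and Hnf4a were named for their roles after their values were seen. Alternatives were other scalings, prior counts and CPM limits, DESeq2 1.42.0 variance-stabilised values, thinning to the smallest library and leaving out each library.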

Additional observations from a re-analysis of the deposited data

How the results depend on the processing

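With 3 libraries a diet, an SD is imprecise, and single libraries decide most counts. Leaving out 1 library at a time moved the number of genes wider in HFD by the SD rule between 445 and 1225, of genes wider in chow between 134 and 236, and the median log2 ratio between -0.16 and 0.94. Over the same settings the moderated variance ratio called 0 to 739 genes wider in HFD and 0 to 9 wider in chow. The Levene-type test called 0 to 3058 wider in HFD and 26 to 291 in chow, but with 2 libraries in a diet both deviations are equal by construction, so those calls are void.

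A limit of 1 CPM gave 1255 genes wider in HFD and 372 in chow by the SD rule, a limit of 20 CPM gave 319 and 47, and no limit gave 2699 and 1567, because other genes were tested. With no limit the Levene-type test called 1013 and 940 genes and the moderated variance ratio 1 and 0. Scaling by total counts gave 149 calls of the moderated variance ratio in HFD, and the cause was not tested. The replicate block left the Levene-type test at 0 calls in both diets, as did squared deviations, deviations from the median and eBayes without robust and trend. The difference in library distance kept its direction in every setting, from 0.0168 with no limit to 0.121 without chow 1, with exact permutation p of 0.1 to 0.4. The median log2 ratio was 0.58 by edgeR's common and 0.48 by its tagwise dispersions, and 0.59 with counting variance subtracted.

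Of 64 genes tracked, the SD difference (HFD minus chow) changed sign in 14 when a library was left out. By the authors' normalized counts it changed sign in another 2, to -0.0231 for Hnf4a and -0.00276 for Rpl10. With a library left out the ranges were -0.75 to 1.55 for Marco, -0.041 to 0.56 for Abcg1, -0.15 to 0.42 for Calr, -0.24 to 1.13 for Derl3, -0.083 to 0.37 for Lrat, -0.89 to 3.44 for Cpa1, -0.043 to 0.83 for Anxa2, -0.17 to 1.23 for Bcl6, -0.06711 to 1.23 for Cyp3a11, -0.009182 to 0.65 for Insig1, -0.86 to 0.13 for Lcn2, -1.26 to 0.26 for Lepr, -0.41 to 0.054 for Srebf1 and -1.01 to 0.30 for Hspa1b.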
